A study of Homo sapiens with 6 samples.

Results

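The genes described here are 10 members of the machinery that carries a cell through G1 and into S phase. They are the D cyclins CCND1 and CCND3, the kinases CDK4 and CDK6 that bind them, the E cyclins CCNE1 and CCNE2 with their kinase CDK2, and the inhibitors CDKN1A (p21), CDKN1B (p27) and CDKN2C (p18). They were taken by name from a fixed list, which was chosen with earlier results of these data known. They make up 10 of the 19945 genes listed in both cell lines. All 10 passed the filter on low values, 1 CPM or more on average over the 6 libraries, as did 13265 genes in all. CPM are reads assigned to a gene, scaled to a common library total.

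The RNA came from 2 established lines of human bladder cancer cells, T24 and UM-UC-3, the first grown in RPMI-1640 and the second in DMEM. In each line 1 culture received a negative control, 1 received 0.04 OD of siRNA-1 and 1 received 0.04 OD of siRNA-2, each for 48 h, giving 3 libraries per line. The labels leave unsaid what the negative control consisted of, and they do not name the target; the series title and some column names point to HSF1, the heat shock transcription factor. Since each condition gave 1 library per line, the 2 siRNAs stand in for replicates in every test against the control, and p-values measure the spread between these libraries only.

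In textbook accounts, mitogens raise D cyclins, which activate CDK4 and CDK6; these kinases begin to phosphorylate RB1, which frees E2F factors to transcribe the E cyclins and other S phase genes. CDK2 bound to cyclin E then completes RB1 phosphorylation and starts DNA replication. CDKN2C, of the INK4 family, blocks CDK4 and CDK6, while CDKN1A and CDKN1B, of the CIP/KIP family, inhibit CDK2; in bladder cancer, loss of brakes on this step is a common event.

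Promoter sequence was at hand for 7 of the 10 members, in 12 windows from RefSeq (GRCh38.p14) that run from 250 bases before a start site to 50 after it. CCND1, CCNE2 and CDK2 had no window and were not searched. The 250 bases before the start are printed for the D-cyclin kinases, CDK6 being the member that differed between the 2 siRNAs and CDK4 the other kinase that binds D cyclins. CDK4 lies on the minus strand at chr12:57752311-57752560 and CDK6, at the first of its starts, on the minus strand at chr7:92836574-92836823. Capitals mark the E-box (CACGTG, the word read by MYC-type factors) and the GC box (GGGCGG on either strand, so also CCGCCC, the word read by SP1-type factors).

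CDK4: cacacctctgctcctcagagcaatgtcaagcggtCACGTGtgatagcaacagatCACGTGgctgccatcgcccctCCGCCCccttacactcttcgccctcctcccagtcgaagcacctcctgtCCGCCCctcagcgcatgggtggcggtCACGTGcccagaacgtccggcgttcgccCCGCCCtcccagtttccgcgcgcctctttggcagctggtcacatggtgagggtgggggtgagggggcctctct

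CDK6: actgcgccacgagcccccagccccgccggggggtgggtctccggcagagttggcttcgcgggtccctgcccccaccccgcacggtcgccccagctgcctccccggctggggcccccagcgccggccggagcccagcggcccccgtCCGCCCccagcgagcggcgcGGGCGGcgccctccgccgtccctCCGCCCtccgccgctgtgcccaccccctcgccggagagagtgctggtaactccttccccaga

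The CDK4 window held 3 E-boxes, 216, 196 and 101 bases before the start, and 3 GC boxes. Of all 35116 promoter windows of the same 300-base length, 7.26% held an E-box and 0.0940% held 3 or more. The CDK6 window also held 3 GC boxes, as 15.8% of all windows did or more, and no E-box before its start. No member window held one of the 4 E2F words searched on both strands (TTTCCCGC, TTTCGCGC, TTTGGCGC and TTTGCCGC), which 3.31% of all windows held. No member window held a heat shock element, searched on both strands as 3 alternating GAA and TTC units with 2 bases between them, which 0.490% of all windows held. These are matches of letters and say nothing of what binds there.

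Library totals were 23709089 to 28504833 reads, and the members had 149 to 23029 reads per library, and the counting interval of each ratio is given where it is printed. HSF1 (ENSG00000185122) stood at 106 CPM in the T24 control, 20.3 under siRNA-1 and 22.7 under siRNA-2, and UM-UC-3 held 138, 50.3 and 36.5 CPM, lower than the control in 4 of 4 siRNA libraries. Its fitted log2 fold change over both lines was -1.96 ± 0.26 (SE), with an adjusted p of 0.424 by limma-trend and 1.94e-07 by DESeq2. Of the epithelial keratins, KRT18 was present at 186 to 335 CPM and KRT8 at 492 to 795 CPM in T24 but 24.2 to 29.1 CPM in UM-UC-3, while KRT7 ran from 0.702 to 7.63 CPM and KRT19 was at 0 in T24 and at most 0.240 CPM in UM-UC-3. Of the urothelial markers, the uroplakins listed stayed at or below 0.403 CPM and GATA3 at or below 1.16 CPM, FOXA1 ran from 2.71 to 11.6 CPM and PPARG from 1.36 to 16.1 CPM. Markers of blood, endothelium and stroma reached at most 4.08 CPM, that of PECAM1 in the UM-UC-3 control.

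Across both lines no member passed the test of siRNA against control, in limma-trend with Benjamini-Hochberg adjustment, and neither did any other of the 13265 genes (0.0% called). At an unadjusted p under 0.05 there were 1313 such genes by limma-trend and 1287 by edgeR, which also called 0; DESeq2 called 87 genes (0.656%) and 0 members. Within the lines, limma-trend and edgeR called 0 genes, and DESeq2 called 322 in T24 (2.43%) and 3 in UM-UC-3 (0.0226%), with 0 members in either. What follows is therefore given as levels in each library, with the counting interval of each ratio and the fitted value beside it. Of the 40 member ratios to the line's own control, 26 lay below 1 and 8 above 1 with a 95% interval that excluded 1, and 6 intervals held 1. These exact binomial intervals cover counting error only, not the variation between cultures or the choice of library scaling. The 2 ratios of a line share their control library.

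**Figure D1:**
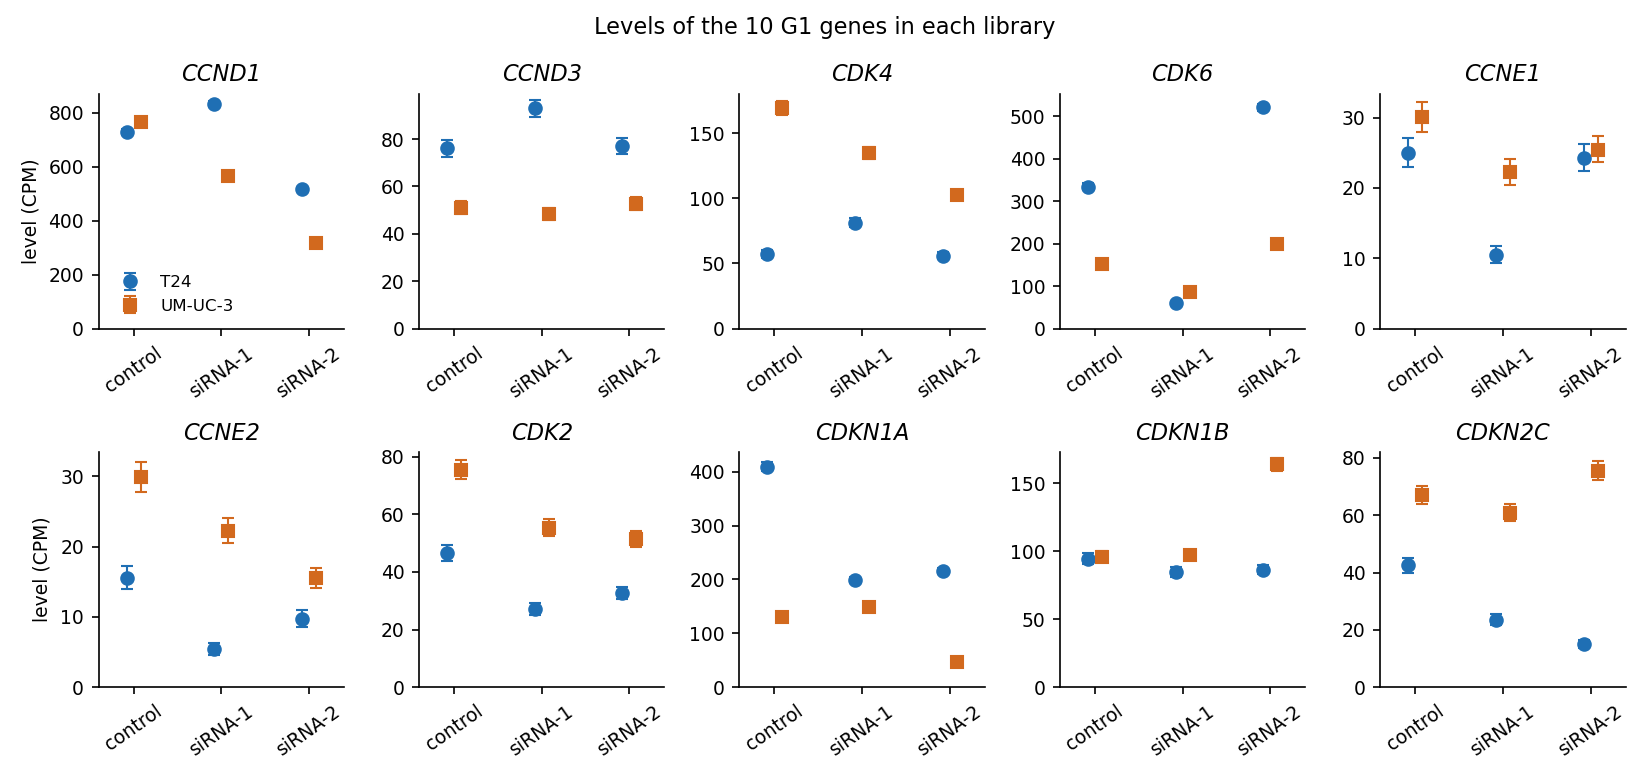
Level of each of the 10 genes in CPM (y axis, from 0, own scale per gene) in each library, by treatment (x axis), with T24 as blue circles and UM-UC-3 as orange squares. Each point is 1 library and bars are 95% counting intervals; CDK6 lies lowest with siRNA-1 in both lines, at 60.7 and 86.4 CPM, and highest with siRNA-2, at 522 and 199 CPM.

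The D-cyclin kinase CDK6 (ENSG00000105810) went opposite ways with the 2 siRNAs. In T24 it stood at 335 CPM for the control, 60.7 for siRNA-1 and 522 for siRNA-2. In UM-UC-3 the same libraries held 153, 86.4 and 199 CPM. Both siRNA-1 libraries lay below their control and both siRNA-2 libraries above it. The ratio to the control with siRNA-1 was 0.181 (0.172 to 0.191) in T24 and 0.566 (0.537 to 0.596) in UM-UC-3. With siRNA-2 it was 1.56 (1.52 to 1.60) in T24 and 1.30 (1.25 to 1.35) in UM-UC-3. Being lower with siRNA-1 and higher with siRNA-2 in both lines was shared by 477 of 13265 genes (3.6%), CDK6 being the 1 member among them.

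Set directly against each other, siRNA-2 over siRNA-1 gave a CDK6 ratio of 8.59 (8.16 to 9.04) in T24 and 2.30 (2.2 to 2.41) in UM-UC-3. The fitted difference over both lines, with the control libraries also in the fit, was 2.14 ± 0.39 (SE) on the log2(CPM + 1) scale, with an adjusted p of 0.0468 by limma-trend. CDK6 was 1 of 37 genes called in this comparison (0.279% of those tested), 19 of them higher and 18 lower with siRNA-2, and the only member. By size it was the 9th of 13265 genes in the direction of siRNA-2 in T24 and over both lines and the 100th in UM-UC-3, and by p it was 36th. The call rests near its threshold: the adjusted p was 0.147 by edgeR, 0.000688 by DESeq2 (258 genes called, 1.94%, CDK6 again the only member), 0.293 without the T24 siRNA-1 library (difference 1.26) and 0.553 without the T24 siRNA-2 library (1.60). In 4 of 4 siRNA libraries HSF1 itself was lower than the control. Its ratio of siRNA-2 over siRNA-1 was 1.12 (0.993 to 1.25) in T24 and 0.726 (0.669 to 0.788) in UM-UC-3. Whether the CDK6 levels depend on HSF1 was not tested.

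The other D-cyclin kinase, CDK4 (ENSG00000135446), was higher in UM-UC-3 than in T24 with each treatment. In T24 it stood at 57.4 CPM for the control, 81.2 for siRNA-1 and 55.9 for siRNA-2. The UM-UC-3 values were 169, 135 and 103 CPM. It was above the control with siRNA-1 in T24, at a ratio of 1.41 (1.32 to 1.51), and not distinguishable from it with siRNA-2, at 0.974 (0.904 to 1.05). With TMM scaling the T24 siRNA-1 ratio was 1.27. In UM-UC-3 both ratios lay below 1, at 0.796 (0.762 to 0.832) and 0.608 (0.579 to 0.637). The fit over both lines gave -0.15 ± 0.28 (SE, adjusted p = 0.878, limma-trend). On the GENCODE 29 annotation 43.2% of the CDK4 exon bases overlap TSPAN31 on the other strand, a gene listed at up to 19.96 CPM. No source used here states whether the counting used strand. Reads in the overlap may thus have been counted to either gene or to neither, which also bears on CDK4 per kilobase.

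Per kilobase of exon, CDK6 made up 60.1% of the CDK4 and CDK6 sum in the T24 control, 16.2% under siRNA-1 and 70.7% under siRNA-2. In UM-UC-3 its share was 18.9%, 14.2% and 33.3% in the same order. The higher D-cyclin kinase per kilobase was thus CDK6 in T24 with the control and with siRNA-2, and CDK4 in the other 4 libraries. This order depends on dividing by all annotated exon bases, 12260 for CDK6 and 3168 for CDK4. In CPM, CDK6 was also above CDK4 in UM-UC-3 with siRNA-2, at 199 against 103. The sum of both kinases ran from 30.6 CPM per kilobase, in T24 with siRNA-1, to 65.9 in the UM-UC-3 control.

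**Figure D2:**
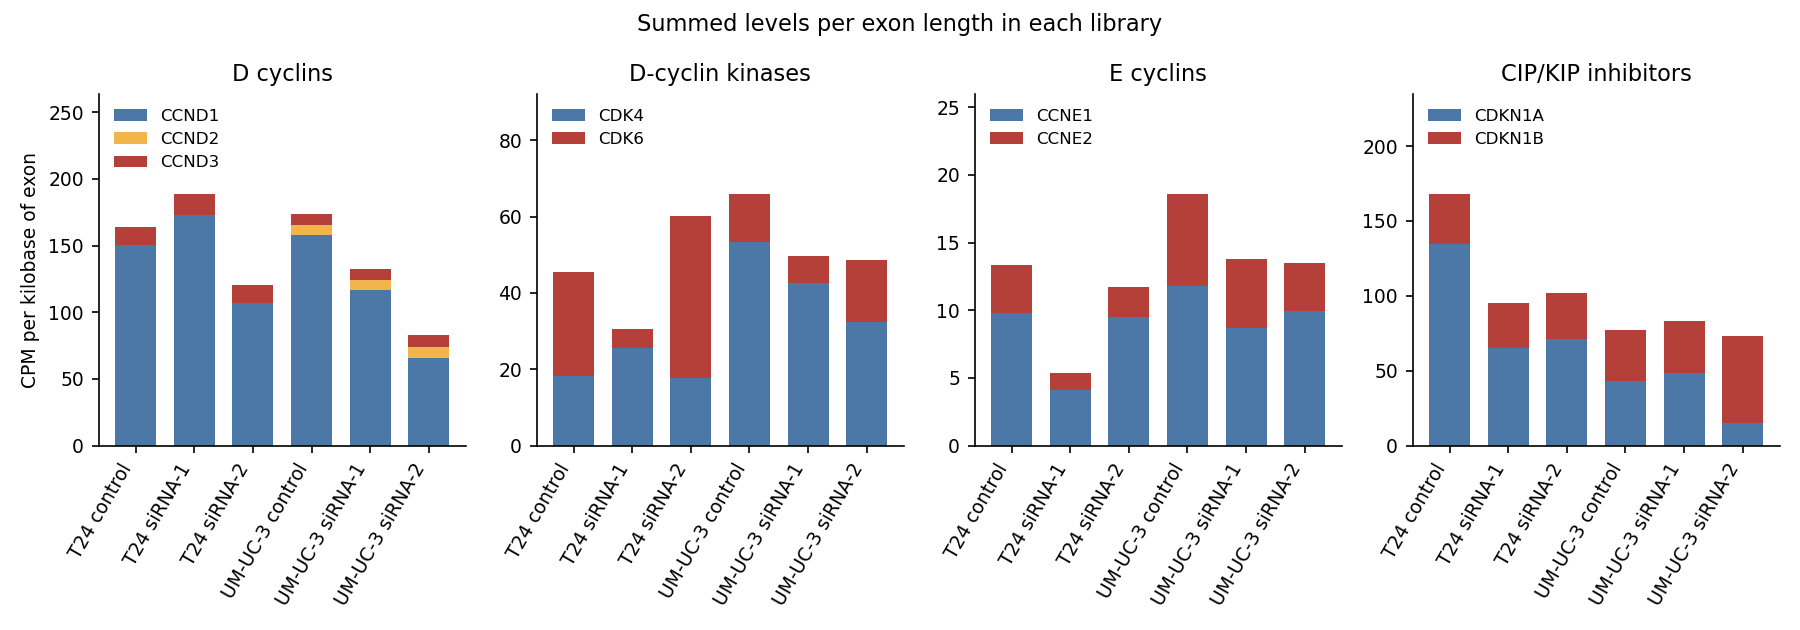
Summed level per kilobase of exon (y axis, CPM per kilobase, from 0) of the D cyclins, their kinases, the E cyclins and the CIP/KIP inhibitors in each of the 6 libraries (x axis); colours split each bar by gene, and CCND2 is drawn at 0 in T24, where it was not listed. CDK6 takes 60.1% of the kinase bar in the T24 control and 16.2% with siRNA-1, and CDKN1A takes 80.0% of the CIP/KIP bar in the T24 control and 20.6% in UM-UC-3 with siRNA-2.

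Cyclin D1, CCND1 (ENSG00000110092), was the most abundant member per kilobase in all 6 libraries. In T24 it stood at 727 CPM for the control, 833 for siRNA-1 and 517 for siRNA-2. In UM-UC-3 the values were 764, 565 and 318 CPM. With siRNA-2 it was lower than both other libraries of its line, at ratios to the control of 0.711 (0.695 to 0.727) in T24 and 0.416 (0.405 to 0.426) in UM-UC-3. With siRNA-1 the lines parted, at 1.15 (1.12 to 1.17) in T24 and 0.740 (0.724 to 0.755) in UM-UC-3. With TMM scaling these ratios were 1.03 and 0.709, so most of the rise in T24 depended on the scaling. The fitted siRNA-2 minus siRNA-1 difference was -0.76 ± 0.27 (SE, adjusted p = 0.294, limma-trend), and the siRNA effect over both lines was -0.50 ± 0.32 (adjusted p = 0.621). Its level was lower with siRNA-2 than with siRNA-1 in both lines, as was that of CDK4, these being 2 of 10 members against 34.1% of genes tested.

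Cyclin D3, CCND3 (ENSG00000112576), showed little difference between treatments. The T24 libraries held 76.0, 93.0 and 77.0 CPM and the UM-UC-3 libraries 50.9, 48.4 and 52.8 CPM. The interval of its ratio excluded 1 in 1 of 4 siRNA libraries, T24 with siRNA-1, at 1.22 (1.15 to 1.30). With TMM scaling that ratio was 1.10. The fit over both lines gave 0.07 ± 0.22 (SE, adjusted p = 0.932, limma-trend), a value whose sign turned with TMM scaling, to -0.0081. Of the D-cyclin sum per kilobase, CCND1 made up 79.3% to 92.0% in the 6 libraries, with the lowest share in UM-UC-3 with siRNA-2. CCND2 was listed in UM-UC-3 only, at 49.2, 52.7 and 57.7 CPM with the control, siRNA-1 and siRNA-2.

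The E cyclins and CDK2 were the 3 members lower than the control in 4 of 4 siRNA libraries; 12.2% of the genes tested met the same condition. No member was higher in 4 of 4, against 18.8% of genes. Being lower with both siRNAs within a line held for 6 members in T24 (30.1% of genes) and 5 in UM-UC-3 (30.4%). Being higher with both held for 1 in T24, CCND3 (39.0%), and 1 in UM-UC-3, CDKN1B (39.8%). For CCND3 the T24 siRNA-2 ratio was 1.01, and for CDKN1B the UM-UC-3 siRNA-1 ratio was 1.01. Both intervals held 1, and with TMM scaling the ratios were 0.992 and 0.966. The 10 members had a median log2 fold change of -0.53 over both lines, 8 of them negative, beside a median of 0.06 over all genes tested. In bulk libraries, fewer cells in a phase of the cycle and less RNA per cell cannot be told apart.

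Cyclin E2, CCNE2 (ENSG00000175305), had the lowest level per kilobase of the 10 in all 6 libraries and the most negative fitted value. In T24 it stood at 15.6 CPM for the control, 5.39 for siRNA-1 and 9.76 for siRNA-2. In UM-UC-3 it stood at 29.9, 22.3 and 15.5 CPM. In each line both siRNA libraries lay below the control, with siRNA-1 the lower in T24 and siRNA-2 the lower in UM-UC-3. The ratios were 0.346 (0.284 to 0.420) and 0.627 (0.533 to 0.737) in T24 and 0.746 (0.669 to 0.831) and 0.518 (0.459 to 0.583) in UM-UC-3. The fit over both lines gave -0.83 ± 0.31 (SE), with an unadjusted p of 0.0248 and an adjusted p of 0.443 by limma-trend. INTS8 on the other strand covers 37.0% of the CCNE2 exon bases and was listed at up to 108 CPM. Reads in this overlap may have been counted to either gene or to neither, so the low CCNE2 level per kilobase may be off in either direction. Smaller overlaps touch CDK2 (14.5% of exon bases, with AC025162.1) and CCND1 (10.3%, with LTO1, listed at up to 41.4 CPM).

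Cyclin E1, CCNE1 (ENSG00000105173), was lower than the control in 4 of 4 siRNA libraries, with an interval that excluded 1 in 3 of them. In T24 it stood at 25 CPM for the control, 10.5 for siRNA-1 and 24.3 for siRNA-2. The UM-UC-3 libraries held 30.05, 22.2 and 25.4 CPM. The T24 siRNA-1 ratio was 0.421 (0.365 to 0.485), while the T24 siRNA-2 ratio of 0.970 (0.867 to 1.09) could not be told from 1 at this depth. In UM-UC-3 the ratios were 0.739 (0.663 to 0.824) with siRNA-1 and 0.847 (0.763 to 0.939) with siRNA-2. The fit over both lines gave -0.47 ± 0.33 (SE, adjusted p = 0.667, limma-trend), and the siRNA-2 minus siRNA-1 difference was 0.66 ± 0.32 (adjusted p = 0.435). Per kilobase, CCNE2 made up 18.9% to 26.5% of the E-cyclin sum in T24 and 26.1% to 36.8% in UM-UC-3.

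The kinase CDK2 (ENSG00000123374) had the most even ratios of the set. Its T24 levels were 46.5, 27 and 32.6 CPM and its UM-UC-3 levels 75.5, 55.4 and 51.4 CPM. The 4 ratios to the control ran from 0.582 (0.529 to 0.639), in T24 with siRNA-1, to 0.734 (0.686 to 0.786), in UM-UC-3 with siRNA-1. Both siRNA libraries lay below the control in each line, as also for CCNE1 and CCNE2, a condition met by 12.2% of genes tested. The fit over both lines gave -0.56 ± 0.23 (SE), with an unadjusted p of 0.0358 and an adjusted p of 0.481 by limma-trend. CDK6 had the same fitted value, -0.56, but an SE of 0.72 and a sign that turned to 0.15 without the T24 siRNA-1 library.

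Markers of proliferating cells are given beside these 3 genes. MKI67, PCNA and TOP2A were all lower than the control in 4 of 4 siRNA libraries, and none was at 0. Their summed level was 1497 CPM in the T24 control, 299.7 under siRNA-1 and 538 under siRNA-2. The UM-UC-3 sums were 1954, 1351 and 1538 CPM. None of the 3 passed the test over both lines, with adjusted p from 0.424 to 0.441 by limma-trend. Their part in the levels of CCNE1, CCNE2 and CDK2 was not tested.

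**Figure D3:**
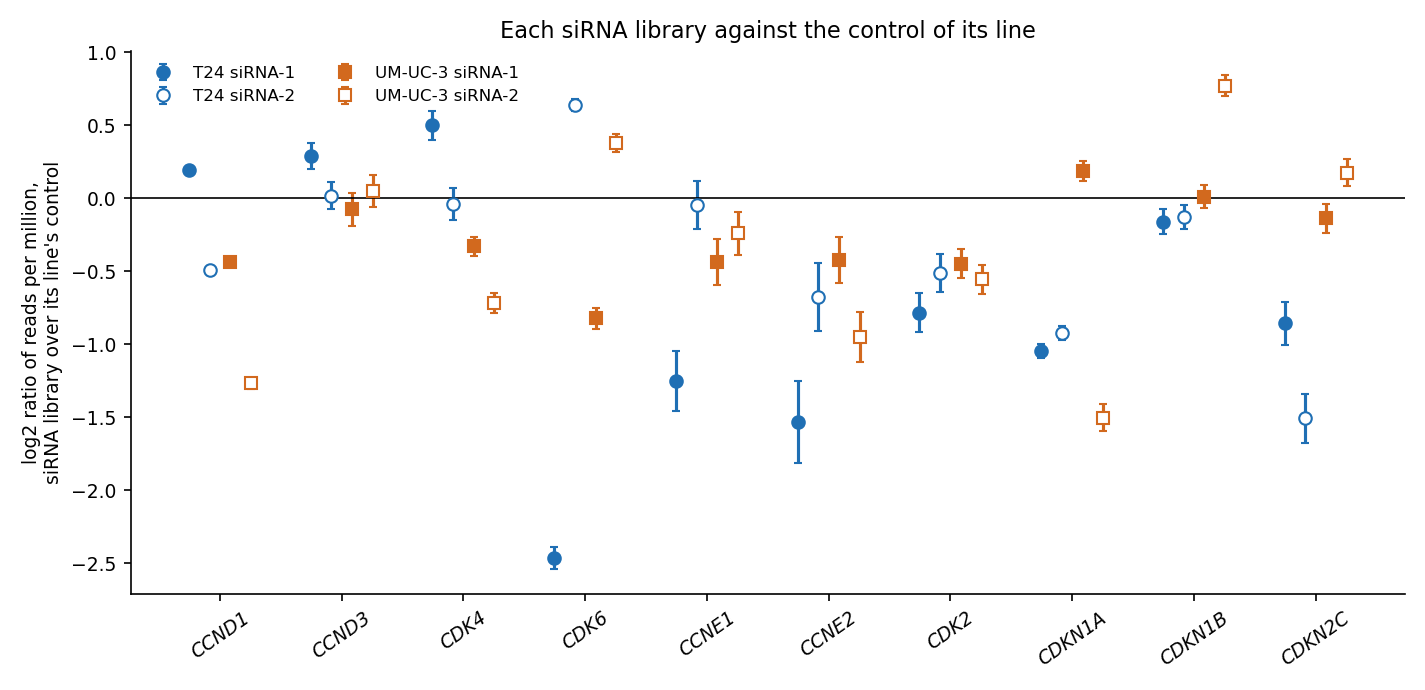
Log2 ratio of CPM in each siRNA library over its line's control (y axis) for the 10 genes (x axis), with T24 in blue and UM-UC-3 in orange, siRNA-1 filled and siRNA-2 open; bars are 95% counting intervals and the line at 0 is the control. CCNE1, CCNE2 and CDK2 lie below 0 in 4 of 4 libraries, and CDK6 lies below 0 with siRNA-1 and above 0 with siRNA-2.

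The inhibitor CDKN1A (ENSG00000124762), a p53 target, stood at 409.7 CPM in the T24 control, 199 under siRNA-1 and 216 under siRNA-2. In UM-UC-3 it stood at 131 CPM for the control, 149 for siRNA-1 and 46.1 for siRNA-2. It was thus lower with both siRNAs in T24, at ratios of 0.485 (0.469 to 0.501) and 0.528 (0.511 to 0.545). In UM-UC-3 it was slightly above the control with siRNA-1, at 1.14 (1.09 to 1.19), and well below it with siRNA-2, at 0.353 (0.331 to 0.377). The fit over both lines gave -0.81 ± 0.40 (SE, adjusted p = 0.542, limma-trend) and that within T24 gave -0.98 ± 0.63 (adjusted p = 0.558). The siRNA-2 minus siRNA-1 fit gave -0.77 ± 0.36 (adjusted p = 0.420): in UM-UC-3 the difference was the 18th lowest of 13265 genes, at -1.67, and in T24 it was 0.12.

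CDKN1B (ENSG00000111276), which holds CDK2 inactive in resting cells and is regulated largely at the protein level, stood at 94.4, 84.5 and 86.4 CPM in the T24 libraries. Those of UM-UC-3 held 95.9, 96.8 and 164 CPM. The UM-UC-3 siRNA-2 library was set apart from the other 5, which lay between 84.5 and 96.8 CPM. Its ratio to the control was 1.71 (1.62 to 1.79), the highest of the 40, and that with siRNA-1 was 1.01 (0.954 to 1.07). In T24 the ratios were 0.896 (0.845 to 0.949) and 0.916 (0.864 to 0.971). Being lower with both siRNAs in T24 and higher with both in UM-UC-3 was met by CDKN1B as the 1 member, against 8.97% of genes, although with TMM scaling the UM-UC-3 siRNA-1 ratio was 0.966. The difference between the lines' siRNA effects was -0.53 ± 0.54 (SE, adjusted p = 0.953, limma-trend), and the fit over both lines gave 0.12 ± 0.27 (adjusted p = 0.898). Per kilobase, CDKN1A made up 80.0% of the CDKN1A and CDKN1B sum in the T24 control and 55.6% in the UM-UC-3 control, and 20.6% in UM-UC-3 with siRNA-2.

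CDKN2C (ENSG00000123080) was lower with both siRNAs in T24 only. It stood at 42.5 CPM for the control, 23.5 for siRNA-1 and 15.0 for siRNA-2 in T24. The UM-UC-3 values were 66.9, 60.9 and 75.5 CPM. The T24 ratios were 0.552 (0.50 to 0.610) and 0.352 (0.313 to 0.395), and those in UM-UC-3 were 0.910 (0.849 to 0.974) and 1.13 (1.06 to 1.20). Within T24 the fit gave -1.14 ± 0.38 (SE, adjusted p = 0.351, limma-trend), which became an adjusted p of 0.0494 with the siRNA number as a block. The difference between the lines' effects was -1.16 ± 0.54 (adjusted p = 0.948), so the lines were not shown to differ. Over both lines the fit gave -0.56 ± 0.33 (adjusted p = 0.594), and 0.02 without the T24 control library.

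**Figure D4:**
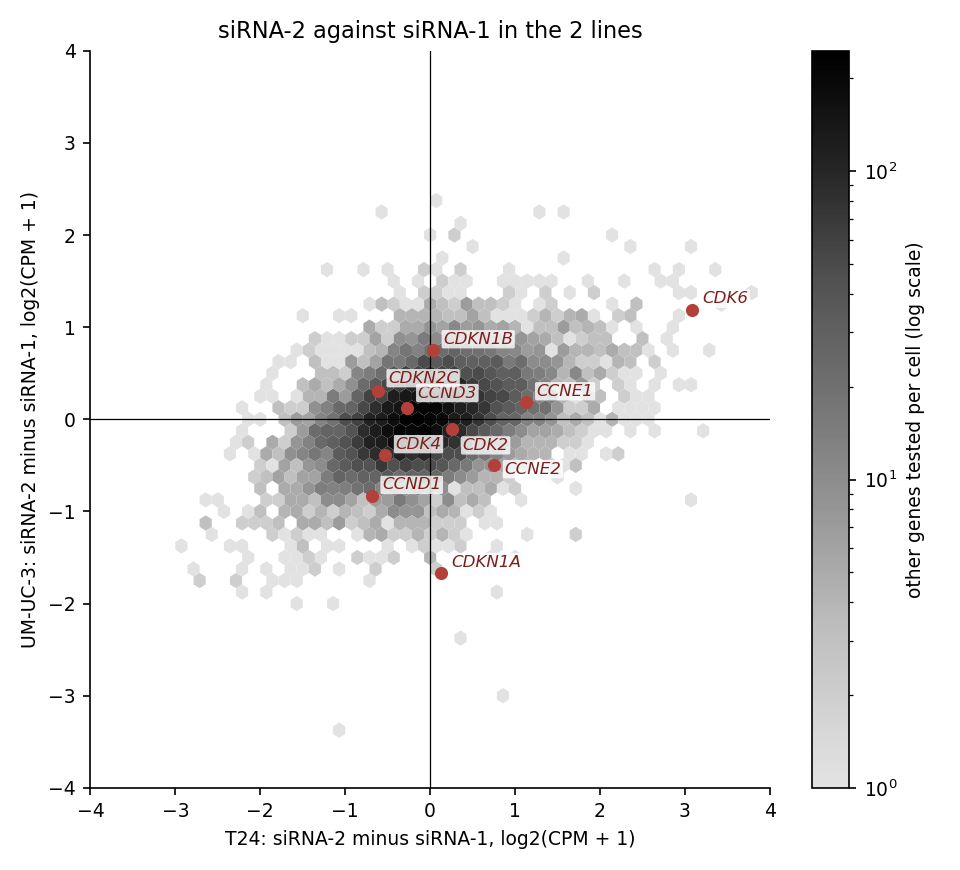
Difference of siRNA-2 minus siRNA-1 in log2(CPM + 1) in T24 (x axis) and in UM-UC-3 (y axis); the grey cells count the other genes tested on a log scale and the red points are the 10 members. CDK6 lies far to the upper right, at 3.08 and 1.19, and CDKN1A lies low in UM-UC-3 only, at 0.12 and -1.67.

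Other genes of the pathway were read from lists chosen with earlier results of these data known. Over both lines none of their genes passed the test in either direction. For scale, 5711 of all 13265 genes tested had a negative fitted value, and 12.2% were lower and 18.8% higher in 4 of 4 siRNA libraries. Of the S, G2 and M cyclins with CDK1, 5 of 5 had a negative fitted value, with a median of -0.80, and 4 of 5 were lower in 4 of 4 siRNA libraries. CDK1, the kinase of mitotic entry, had the most negative value there, -1.36 ± 0.31 (SE, adjusted p = 0.424, limma-trend), with CCNB2 at -1.01, CCNA2 at -0.80 and CCNB1 at -0.65. These are later-phase cyclins, and the proliferation markers given above were lower in the same 4 libraries.

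Of the pocket proteins, DP and E2F genes, 9 of 13 were negative (median -0.41) and 6 were lower in 4 of 4 siRNA libraries. E2F1, an activator of S phase genes, had T24 levels of 46.3, 14.1 and 18.8 CPM and UM-UC-3 levels of 68.6, 40.4 and 31.9 CPM, a fitted value of -1.18 ± 0.26 (SE, adjusted p = 0.424, limma-trend). E2F2 had -1.36, and the repressor-type members E2F7 and E2F8 had -0.80 and -1.38. The kinases and phosphatases that switch CDKs on and off had a median of -0.37, with 5 of 8 negative. They included the phosphatases CDC25C at -1.08 and CDC25B at -0.92 and the inhibitory kinases PKMYT1 at -1.01 and WEE1 at -0.59.

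Of the genes for ubiquitin ligases that mark p27, cyclin E and D cyclins for destruction, 4 of 9 were negative and the median was 0.19. The substrate receptor SKP2 had -0.93, CUL1 -0.30 and AMBRA1, a receptor of a CUL4 ligase that directs D cyclins to destruction, 0.25. CKS1B, the cofactor SKP2 needs to bind p27, had T24 levels of 162, 104 and 24.8 CPM and UM-UC-3 levels of 139, 83.5 and 38.4 CPM, a fitted value of -1.46 ± 0.53 (SE, adjusted p = 0.441, limma-trend). Both siRNA-2 libraries held the least CKS1B of their line.

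The p53 axis around CDKN1A was split, with 7 of 15 negative, a median of 0.00, 2 genes lower and 6 higher in 4 of 4 siRNA libraries. GADD45A, a stress-response gene, had -1.05 and MDM4, an inhibitor of p53, -0.44, while the oxidoreductase gene TP53I3 had 0.97 and SESN1 0.69. The FOXO and PI3K list around CDKN1B, which holds CDKN1B itself, had 3 of 9 negative and a median of 0.09, with FOXO4 at 0.77, TSC1 at 0.50 and FOXO3 at 0.14. The 8 reference genes had a median of -0.13, with 6 negative, among them TBP at -0.65, B2M at -0.27 and PGK1 at -0.20, beside ACTB at 0.39.

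**Figure D5:**
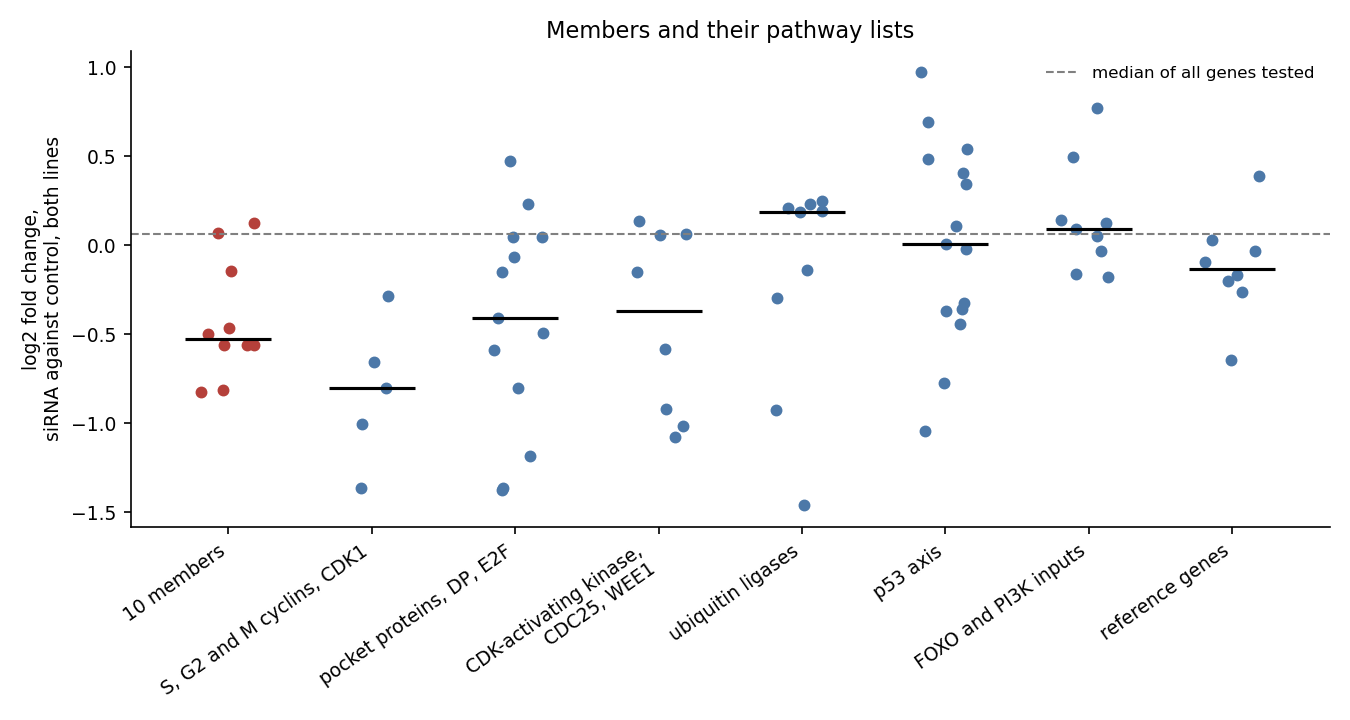
Fitted log2 fold change of siRNA against control over both lines (y axis) for each tested gene of the 10 members (red) and of the pathway lists (blue); black bars are list medians and the dashed line is the median of all genes tested, 0.06. The members' median is -0.53 and that of the S, G2 and M list -0.80, and no gene shown passed the test.

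With treatment held fixed, 6 of 10 members differed between T24 and UM-UC-3 at an adjusted p under 0.05, against 45.8% of all genes tested by limma-trend, and edgeR and DESeq2 called 6 members as well (43.7% and 45.6% of genes). Line, medium and any difference in handling cannot be told apart in this comparison. Members with all 3 T24 libraries above all 3 of UM-UC-3 numbered 2 (27.1% of genes) and those with all below numbered 4 (23.9%).

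CDKN1A was higher in T24, by 1.42 ± 0.30 (SE) on the log2 scale (adjusted p = 0.00205, limma-trend), and so was CCND3, by 0.68 ± 0.22 (adjusted p = 0.0240). The other 4 were lower in T24. CDKN2C differed by -1.41 ± 0.29 (adjusted p = 0.00196, limma-trend), from 15.0 to 42.5 CPM in T24 to 60.9 to 75.5 in UM-UC-3. CCNE2 differed by -1.13 ± 0.29 (adjusted p = 0.00685), CDK4 by -1.04 ± 0.23 (adjusted p = 0.00308) and CDK2 by -0.78 ± 0.22 (adjusted p = 0.0134). CCND3 lost its call without any 1 of the 4 siRNA libraries (adjusted p of 0.0679 to 0.169), and CCNE2 and CDK2 lost theirs without either siRNA-1 library (0.0786 to 0.0986).

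CCND1, CCNE1, CDK6 and CDKN1B did not pass, with adjusted p of 0.160, 0.185, 0.10 and 0.210 by limma-trend. CCND1, at 0.40 in the full fit, passed without either control library, at 0.63 (adjusted p of 0.0243 and 0.0281). CDK6 was 2.2 times (2.11 to 2.28) as high in the T24 as in the UM-UC-3 control and 2.63 times (2.55 to 2.71) with siRNA-2, but 0.703 times (0.660 to 0.748) with siRNA-1. Without either siRNA-1 library its line difference was 1.26, with an adjusted p of 0.000310 to 0.000336 by limma-trend.

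INK4 genes that were not among the 10 also had unlike levels in the lines. CDKN1C, of the CIP/KIP family, overlapped between them, at 0.411 to 1.22 CPM in T24 and 0.220 to 1.23 CPM in UM-UC-3. CDKN2A, whose products include p16, was listed in T24 only, at 68.5, 59.7 and 22 CPM with the control, siRNA-1 and siRNA-2. These counts are per gene and do not tell the p16 transcript from others of CDKN2A. CDKN2B, which encodes p15, was also listed in T24 only, at 18.9, 30.9 and 20.3 CPM. CDKN2D, the fourth INK4 gene, was the 1 of 6 further G1 genes that was tested, being listed in both lines and above the filter, at 7.40 to 10.4 CPM in T24 and 1.69 to 2.98 CPM in UM-UC-3. Its line difference was 1.57 ± 0.27 (SE, adjusted p = 0.000509, limma-trend), higher in T24. Where a listed gene was at 0 in 1 library of a control and siRNA-1 pair, the other held 5 reads or more, so a gene that was not listed may still have had a few reads.

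Over the 6 libraries the levels of some members ran together, read as Pearson's r of log2 levels centred on the line's mean. Such an r pools both lines and need not hold in each. These are descriptions, since the 6 points share 2 controls. CCNE2 and CDK2 had r = 0.95, CCNE1 and CDK6 0.94 and CCND1 and CDK4 0.90, whereas CCND3 and CCNE1 had -0.83 and CCND1 and CDKN1B -0.81. In UM-UC-3 alone, CCND3 and CCNE1 were both lowest with siRNA-1, at 48.4 and 22.2 CPM.

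Among 7778 genes that averaged 20 CPM or more, those most like CCNE2 included NQO1 and ITGA5, with 0.900% of genes at r of 0.95 or more. Those most like CDK2 were PRKDC, PCNA and PASK (1.31% of genes), and those most like CDKN1A were STK17A, LINC00707 and TARS1 (0.219%). For CDK6, added after its values were seen, they were PLCB1, CCNDBP1 and GTF3A (2.83%). GTF3A, the transcription factor of 5S RNA genes, had T24 levels of 93.8, 25.3 and 133 CPM and UM-UC-3 levels of 81.7, 54.1 and 93.9 CPM, so that its lowest library in each line was siRNA-1 and its highest siRNA-2, as for CDK6.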

How the data were processed

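Per the file headers, the deposited values are CPM, which the authors scaled to the reads assigned to genes. Among the tools in the submitters' processing notes are bcl2fastq 2.19.1, HTSeq 0.6.1 and HISAT2 2.1.0; the builds listed there are GRCh37 and hg19. All values (100.0%) in the 6 libraries were whole multiples of 1 read, allowing 0.01, with a count of 0 written as 0.5 read, so the reads behind the CPM could be recovered, 23709089 to 28504833 per library. Genes were joined by identifier, and 3530 missing values among the 19945 genes of both lines were set to 0; 19821 identifiers matched a symbol.

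The test was limma-trend (limma 3.58.1, R 4.3.3) on log2(CPM + 1) for genes averaging 1 CPM or more, with Benjamini-Hochberg adjustment over all 13265 genes and a threshold of 0.05; fold changes of low genes are understated on this scale. Comparisons were siRNA against control over both lines with line as a term, within each line, the difference of the lines' effects, siRNA-2 against siRNA-1, and T24 against UM-UC-3. Alternatives were edgeR 4.0.16 and DESeq2 1.42.0 on the recovered reads, TMM and RLE scaling, pseudocounts of 0.1 and 5, no filter or 5 CPM, leaving out each library, and the siRNA number as a block. On simulated data with known changes the scripts were checked first. Intervals of ratios are exact binomial at 95%. Lengths and overlaps came from GENCODE 29, matched by identifier. Named genes were HSF1, the 10 members, up to 4 genes of smallest p from each pathway list, and the 3 genes most like each of the 3 members with the largest fitted change. Genes of single lines, markers and CDK6's likeness were named besides. The members and lists were chosen with earlier results of these data known. Some genes that the naming rule picks are not reported here.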

Additional observations from a re-analysis of the deposited data

Results flagged for a closer look

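CDK6 differed between the 2 siRNAs: the siRNA-2 minus siRNA-1 difference over both lines was 2.14 on the log2 scale (adjusted p = 0.0468, limma-trend), higher with siRNA-2 in 2 of 2 lines, and this difference was itself tested. It lost its call by edgeR, with TMM scaling, with a pseudocount of 5 and without a filter.

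CDKN1B was lower than the control with both siRNAs in T24 and higher with both in UM-UC-3. The difference between the lines' effects was -0.53 (adjusted p = 0.953, limma-trend), the UM-UC-3 siRNA-1 ratio was within counting error of 1, and it fell below 1 with TMM scaling.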

How the results depend on the processing

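No member was called over both lines, in UM-UC-3 or for the difference between lines under any alternative run. DESeq2 called 87 genes over both lines, 322 in T24, 3 in UM-UC-3, 37 for the difference between lines and 258 for siRNA-2 against siRNA-1, where limma-trend called 0, 0, 0, 0 and 37. Without a filter 2 genes were called in T24 and 0 for siRNA-2 against siRNA-1; that last comparison also gave 0 with edgeR under TMM or RLE and with TMM scaling in limma, and 13 with a pseudocount of 5, with 0 members called in all 5 of these. Leaving out each library gave 0 to 447 genes in T24 (0 to 1 member, CDK6 without the siRNA-2 library), 0 to 485 for siRNA-2 against siRNA-1 (0 to 1 member), 3 to 5 members lower and 0 to 1 higher in all remaining siRNA libraries.

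Signs over both lines turned for CCND3 (-0.0074 by edgeR with TMM, -0.0081 by limma with TMM scaling, -0.011 to 0.15 when leaving out libraries), CDK4 (-0.52 to 0.23), CDK6 (-1.17 to 0.15), CDKN1B (-0.14 to 0.39) and CDKN2C (-1.14 to 0.019), the last 4 when leaving out libraries; the cause was not tested. Same-numbered libraries share an siRNA, and the siRNA-2 minus siRNA-1 differences of the lines correlated at r = 0.417 across 13265 genes. With 2 pairs this does not establish pairing. The replicate block gave 847 genes in T24, 12 in UM-UC-3 and 119 for the difference between lines, with 1 member called in T24, CDKN2C (adjusted p = 0.0494).

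With 1 library per condition and line, an siRNA and the culture it was given to cannot be told apart within a line. Of the 40 member ratios, 6 had a counting interval that held 1.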
